A study of Homo sapiens with 4 samples.

Results

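Exosomes are small vesicles that cells release when multivesicular endosomes fuse with the plasma membrane. The 46 genes described here encode the machinery of that route, and they were taken by name from a fixed list, drawn up with earlier results of these data known. All 46 were found by symbol among the 15562 genes of the RNA-seq tables. They comprise 4 tetraspanins, 5 RAB GTPases with the RAB27 effector SYTL4, 4 genes of the syndecan, syntenin and ALIX route, 25 ESCRT genes from ESCRT-0 to VPS4, 2 sphingomyelinases, 2 flotillins with annexin A2, and 2 RNA-binding proteins linked to RNA sorting.

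H1975 is an established human lung adenocarcinoma line, labelled here as wild type. The libraries labelled normoxia came from cells kept for 24 h in standard medium with serum and 5% CO2. Their oxygen level is not stated in the labels. The libraries labelled hypoxia came from cells kept for 24 h in a gas mix of 94% N2, 1% O2 and 5% CO2. Each condition has 1 RNA-seq library and 1 small RNA library, so no difference could be set against a spread between cultures. The RNA-seq libraries were made from cells, and vesicle release was not measured. In such bulk RNA, fewer cells of a kind and less RNA per cell cannot be told apart.

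The route is usually described as follows. ESCRT-0 gathers ubiquitinated cargo on the endosome, ESCRT-I and ESCRT-II deform the membrane, ESCRT-III filaments pinch off vesicles into the lumen, and the VPS4 ATPases take the filaments apart. Syntenin and ALIX connect syndecans to the same filaments, and ceramide made by neutral sphingomyelinase gives a route that needs less ESCRT. RAB27A and RAB27B bring the endosome to the plasma membrane, while RAB7A directs it to the lysosome, and tetraspanins are abundant in the released vesicles.

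Total RNA-seq counts were 17643836 (normoxia) and 18943320 (hypoxia). The 7 epithelial markers were all well above the filter, with a summed level of 7236 and 6551 CPM (counts scaled to library size). Of markers of other cells, the 6 fibroblast genes summed to 115 and 121 CPM, mostly COL1A1 at 89.2 and 95.3 CPM, the 5 endothelial genes to 7.00 and 6.30, and the 4 leukocyte genes in the table to 24.5 and 17.6. The defining genes VWF and PTPRC each had 0 counts in normoxia and 2 in hypoxia, and the part of other cells in the values below was not tested. Of 10 known targets of the hypoxia-inducible factors (HIF), the interval of 9 lay above 0 in hypoxia, against 15.0% of all genes tested. VEGFA, for example, had 2268 counts in normoxia and 3808 in hypoxia. These targets too were listed with earlier results of these data known, so their count is a description only.

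Transcripts of the exosome and ESCRT machinery differed little between the libraries. The largest difference was that of the sphingomyelinase SMPD2, which was 1.28-fold lower in hypoxia, and the highest ratio was 1.18 for the ESCRT-I subunit VPS37A. The ratio given throughout is that of hypoxia to normoxia after scaling by the trimmed mean of M values, on the log2 scale, with a 95% interval that covers counting error only. The filter asked for a CPM of 1 in either library, and 44 members passed it, all 44 of them in both libraries. CHMP3 and SMPD3 did not pass. None of the 44 reached a 2-fold ratio with an interval excluding no change, against 0.472% of the 12725 genes tested that were higher and 0.440% that were lower by this rule. Most such calls fall on sparse genes, and at the depth of 43 of the 44 members, 100 or more counts in each library, they took 0.0279% and 0.00931% of genes. The median log2 ratio of the 44 was -0.0023, beside 0.0032 for all genes tested, and 43 of the 44 lay within 1.2-fold, against 83.3% of all genes tested and 90.7% of those with 100 or more counts. At a ratio of 1.5 with an interval excluding no change, 0 members were higher and 0 lower, where 1.21% and 1.12% of all genes were. At a ratio of 1.2 no member was higher and 1, SMPD2, was lower, where 4.86% and 4.60% of all genes were.

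By counting error alone, the interval lay wholly above 0 for 12 of the 44 members (27.3%, against 15.0% of all genes tested) and wholly below 0 for 5 (11.4%, against 14.0%). Deeply counted genes have narrow intervals, so these shares were also read by depth. Among the 25 members with 1000 or more counts in both libraries, 5 lay above and 4 below 0, or 20.0% and 16.0%, where all genes of that depth gave 21.8% and 21.1%. Among the 18 members with 100 or more counts in each library but not 1000 in both, 7 lay above and 1 below, or 38.9% and 5.56%, where all genes of that depth gave 12.6% and 11.3%. The 7 are RAB27B, STAM2, VPS28, VPS37A, CHMP1B, CHMP4A and CHMP7. With a 99% interval 1 of the 18, CHMP4A, lay above 0 (5.56%, against 6.54% of all genes of that depth), and after correction for gene length, described further down, 4 of the 18 did (22.2%, against 716 of 6498 genes), without RAB27B, STAM2 and VPS37A. Of the 44 members, 43 lay between the 5th and the 95th percentile of the 10739 genes with at least 100 counts in each library, which are -0.25 and 0.26. The member outside was SMPD2.

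**Figure D1:**
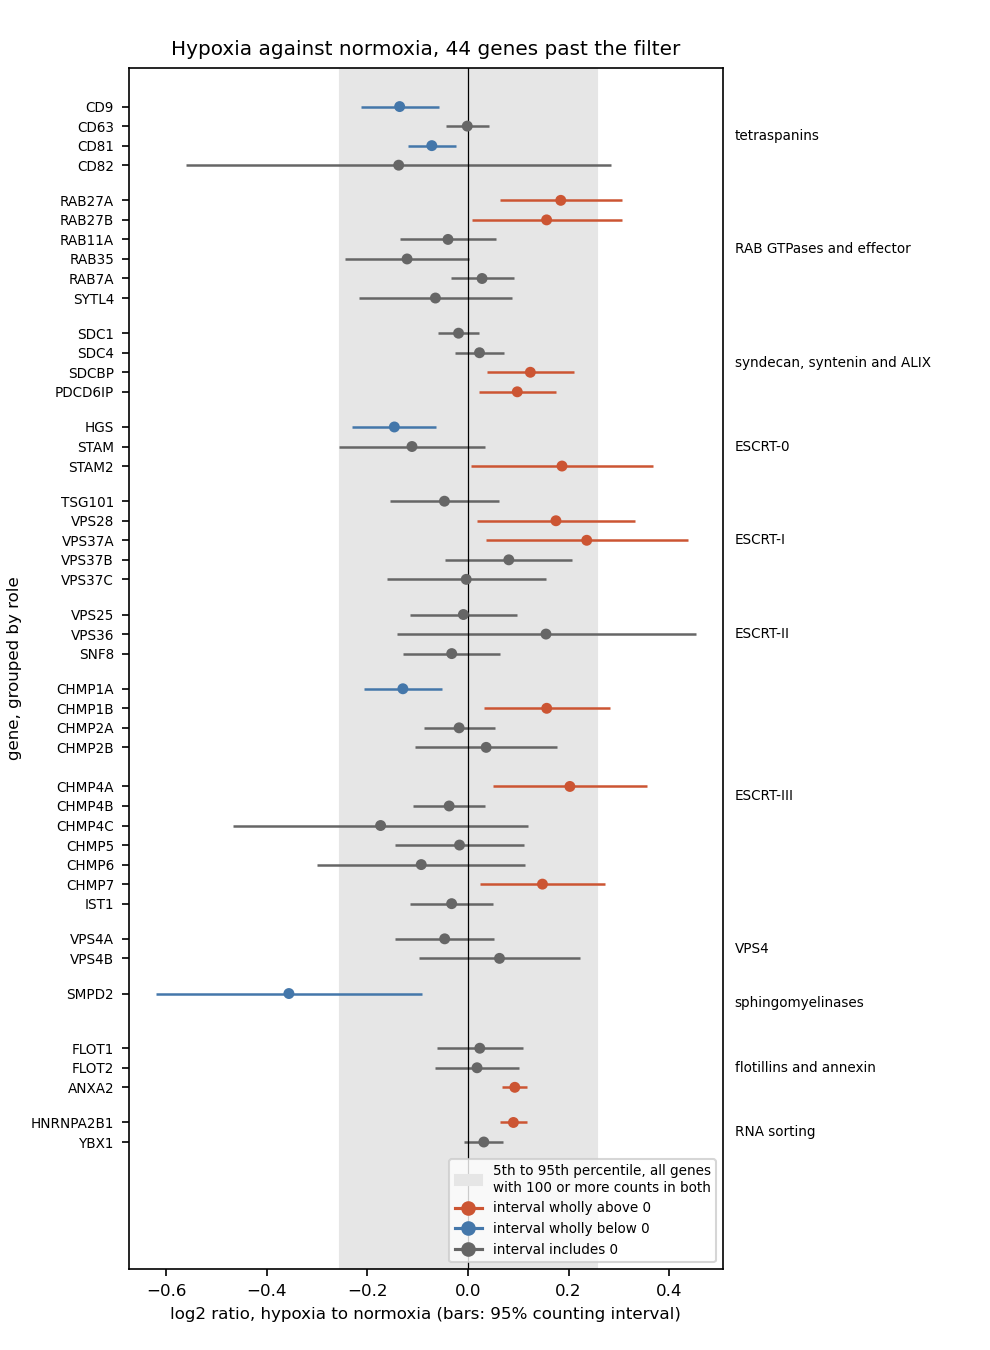
Log2 ratio of hypoxia to normoxia (x axis) for the 44 members past the filter, grouped by role, 1 library per condition. Bars are 95% counting intervals and the grey band spans the 5th to 95th percentile (-0.25 to 0.26) of genes with at least 100 counts in each library. Only SMPD2, at -0.36, lies outside the band.

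**Figure D2:**
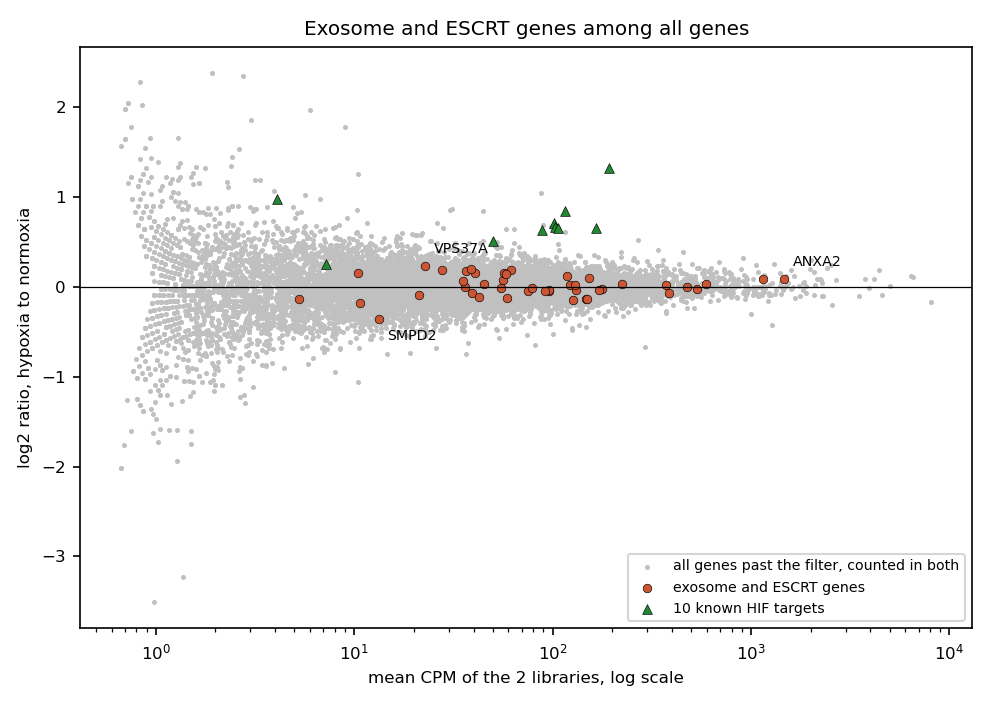
Log2 ratio of hypoxia to normoxia against mean CPM (log axis) for genes counted in both libraries and past the filter (grey), the 44 members (red) and 10 known HIF targets (green triangles). The members stay between -0.36 and 0.24, while the HIF targets run from 0.26 to 1.32.

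The tetraspanins are membrane organisers that serve as common exosome markers, and 3 of the 4 were among the most abundant members per length. CD63, which is concentrated on late endosomes, had 8403 counts in normoxia and 8953 in hypoxia, or 260 and 258 FPKM (fragments scaled to gene length and library size). Its log2 ratio was -0.0013 (-0.04 to 0.04), which bounds any difference at 0.04 either way as far as counting error goes. CD81 had 7034 and 7137 counts (181 and 171 FPKM), with a log2 ratio of -0.07 (-0.12 to -0.02). CD9 had 2730 and 2650 counts (113 and 102 FPKM), with a log2 ratio of -0.14 (-0.21 to -0.06). CD82, known as a metastasis suppressor, was sparse at 98 and 95 counts (2.30 and 2.08 FPKM), and its log2 ratio of -0.14 (-0.56 to 0.28) leaves either direction possible. All 4 log2 ratios were below 0 with the main scaling, but that of CD63 was above 0 with DESeq2 size factors (9.98e-05) or corrected for gene length (0.04). The intervals of CD9 and CD81, which sit mainly at the cell surface, excluded 0. Of all genes tested 14.0% lay wholly below 0, and of those with 1000 or more counts in both libraries 21.1%. After the length correction the CD81 interval included 0 (-0.08 to 0.01) and that of CD9 did not. A shared direction is thus not read from the 4.

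Both RAB27 genes were higher in hypoxia by counting error. RAB27A, which docks multivesicular endosomes at the plasma membrane, had 1024 counts in normoxia and 1241 in hypoxia (14.8 and 16.7 FPKM), a log2 ratio of 0.18 (0.06 to 0.31). RAB27B, its paralogue, had 679 and 807 counts (3.79 and 4.19 FPKM), a log2 ratio of 0.16 (0.01 to 0.31). RAB27A made up 79.7% of the pair's FPKM in normoxia and 80.0% in hypoxia, so their proportion was nearly the same. The RAB27B interval included 0 with table totals, a 99% interval or the length trend removed, while that of RAB27A excluded 0 in each. Their effector SYTL4 (granuphilin) had 710 and 724 counts, a log2 ratio of -0.06 (-0.22 to 0.09). The span of RAB27A overlaps that of PIGBOS1 by 1940 bases and the span of SYTL4 overlaps SRPX2 by 1298 bases, and no source used here says whether reads there were counted by strand.

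The other RAB GTPases did not leave their counting error. RAB7A, the GTPase of late endosomes and lysosomes, was the most abundant of them with 3947 and 4292 counts (102 and 104 FPKM) and a log2 ratio of 0.03 (-0.03 to 0.09). RAB11A, of recycling endosomes, had 1731 and 1796 counts (20.3 and 19.7 FPKM) and a log2 ratio of -0.04 (-0.14 to 0.06). RAB35, which also acts in recycling and vesicle docking, had 1086 and 1065 counts (21.5 and 19.7 FPKM) and a log2 ratio of -0.12 (-0.24 to 0.002). The upper end of the RAB35 interval lies just above 0, and it lay below 0 when the counts were scaled to table totals.

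In the syndecan route, the intervals of the adaptors lay above 0 and those of the syndecans included 0. Whether adaptors and syndecans differed from each other was not tested. SDCBP (syntenin) had 2010 counts in normoxia and 2336 in hypoxia (26.0 and 28.2 FPKM), a log2 ratio of 0.12 (0.04 to 0.21). PDCD6IP (ALIX), which connects syntenin to ESCRT-III, had 2623 and 2994 counts (22.5 and 23.9 FPKM), a log2 ratio of 0.10 (0.02 to 0.17). The PDCD6IP interval included 0 at 99% and with the length trend removed, and that of SDCBP excluded 0 in both. The syndecans are far more abundant per length, at nearly equal levels. SDC1 had 9481 and 9981 counts (145 and 142 FPKM) and a log2 ratio of -0.02 (-0.06 to 0.02). SDC4 had 6581 and 7131 counts (143 and 144 FPKM) and a log2 ratio of 0.02 (-0.03 to 0.07).

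ESCRT-0 held members on both sides of 0. HGS (HRS), its ubiquitin-binding subunit, had 2364 counts in normoxia and 2278 in hypoxia (46.3 and 41.6 FPKM), a log2 ratio of -0.15 (-0.23 to -0.06). Its partner STAM had 788 and 778 counts (8.74 and 8.04 FPKM), a log2 ratio of -0.11 (-0.26 to 0.03). STAM2, the alternative partner, had 458 and 556 counts (4.74 and 5.36 FPKM), a log2 ratio of 0.19 (0.01 to 0.37). The log2 ratios of STAM2 and STAM differed by 0.30 (0.07 to 0.53), and STAM2 made up 35.2% of their joint FPKM in normoxia and 40.0% in hypoxia.

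In ESCRT-I, TSG101, which binds the late-domain motifs of cargo and of budding viruses, had 1355 and 1399 counts (48.8 and 46.9 FPKM) and a log2 ratio of -0.05 (-0.16 to 0.06). VPS28, the subunit that binds ESCRT-II, had 613 counts in normoxia and 738 in hypoxia (29.4 and 33.0 FPKM), a log2 ratio of 0.18 (0.02 to 0.33). VPS37A had the highest ratio of the 44, with 371 and 466 counts (2.11 and 2.47 FPKM) and a log2 ratio of 0.24 (0.04 to 0.44). VPS37A was also the least abundant of the VPS37 genes, at 8.96% of their joint FPKM in normoxia and 10.2% in hypoxia. VPS37B had 967 and 1091 counts and a log2 ratio of 0.08 (-0.04 to 0.21), and VPS37C had 641 and 682 counts and a log2 ratio of -0.0033 (-0.16 to 0.15). The VPS37 genes did not differ from each other in ratio beyond counting error.

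No ESCRT-II subunit left its counting error. VPS25 had 1405 and 1489 counts (73.2 and 72.2 FPKM, log2 ratio -0.0090, -0.12 to 0.10). SNF8 (VPS22) had 1726 and 1800 counts (47.1 and 45.8 FPKM, log2 ratio -0.03, -0.13 to 0.06). VPS36 had 176 and 209 counts (2.10 and 2.33 FPKM, log2 ratio 0.16, -0.14 to 0.45). Per length VPS36 was thus far below VPS25 and SNF8 in both libraries, although all 3 are subunits of 1 complex.

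ESCRT-III, the filament-forming complex, had 3 of its 11 tested subunits above 0 and 1 below, where 15.0% and 14.0% of all genes tested were. CHMP4A had 638 counts in normoxia and 783 in hypoxia (36.9 and 42.2 FPKM), a log2 ratio of 0.20 (0.05 to 0.36). CHMP1B had 954 and 1134 counts (17.8 and 19.7 FPKM), a log2 ratio of 0.16 (0.03 to 0.28). CHMP7, known for nuclear envelope sealing, had 974 and 1151 counts (15.2 and 16.8 FPKM), a log2 ratio of 0.15 (0.02 to 0.27). CHMP1A was the subunit below 0, with 2762 and 2693 counts (45.4 and 41.2 FPKM) and a log2 ratio of -0.13 (-0.21 to -0.05). CHMP1B is an intronless gene whose whole span of 3032 bases lies within that of GNAL, which had 6 counts in normoxia and 22 in hypoxia, and the part of that overlap in either value was not tested.

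CHMP2A, CHMP4B, IST1 and 4 further ESCRT-III subunits differed by less than counting error. CHMP2A, the most abundant per length, had 3175 and 3345 counts (177 and 174 FPKM, log2 ratio -0.02, -0.09 to 0.05). CHMP4B, the main subunit of the filament, had 3085 and 3206 counts (109 and 106 FPKM, log2 ratio -0.04, -0.11 to 0.03). IST1, which copolymerises with CHMP1B, had 2362 and 2463 counts and a log2 ratio of -0.03 (-0.11 to 0.05). CHMP2B, CHMP5 and CHMP6 had log2 ratios of 0.04 (-0.10 to 0.18), -0.02 (-0.14 to 0.11) and -0.09 (-0.30 to 0.11). CHMP4C, which acts in the abscission checkpoint, had 202 and 191 counts, a log2 ratio of -0.17 (-0.47 to 0.12), too few to show a direction.

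CHMP3 stood apart from its complex by level. It had 8 counts in each library (0.144 and 0.135 FPKM), where the other ESCRT-III subunits had 191 or more. Its span lies wholly within that of the read-through gene RNF103-CHMP3, which had 23 counts in normoxia and 17 in hypoxia. Reads in the shared exons could have been set aside, so the level of CHMP3 is uncertain and no direction is read from it. The VPS4 ATPases, which recycle the filaments, also differed by less than counting error. VPS4A had 1646 and 1700 counts (22.7 and 21.9 FPKM, log2 ratio -0.05, -0.14 to 0.05), and VPS4B had 615 and 685 counts (10.3 and 10.7 FPKM, log2 ratio 0.06, -0.10 to 0.22). The span of VPS4A overlaps that of COG8 by 512 bases.

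Of the 13 paralogue pairs compared within the families, 4 differed in ratio beyond counting error, and these differences do not depend on the scaling of the libraries. The same share for pairs of other genes was not computed, so the count is not read as a trait of paralogues. Singly, 15.0% of all genes tested lay above 0 and 14.0% below. CHMP4A is part of both CHMP4 pairs counted here, so those are not independent. CHMP1B exceeded CHMP1A by 0.29 on the log2 scale (0.14 to 0.43), and its part of their joint FPKM was 28.2% in normoxia and 32.4% in hypoxia. CHMP4A exceeded CHMP4B by 0.24 (0.07 to 0.41) and CHMP4C by 0.38 (0.05 to 0.71). CHMP4A held 24.2% of the CHMP4 total in normoxia and 27.5% in hypoxia, against 71.7% and 68.9% for CHMP4B. STAM2 against STAM, above, was the other pair. In the 3 families with such a pair, the dominant paralogue was the same in both libraries.

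Of the 2 sphingomyelinases only SMPD2 passed the filter, and it had the lowest ratio of the 44 members tested. SMPD2 (neutral sphingomyelinase 1) had 264 counts in normoxia and 220 in hypoxia (8.78 and 6.82 FPKM), a log2 ratio of -0.36 (-0.62 to -0.09), and lay at percentile 1.86 of genes with 100 or more counts. Its span overlaps that of PPIL6 by 448 bases, and PPIL6 had 67 and 87 counts. SMPD3 (neutral sphingomyelinase 2), the enzyme usually tied to ceramide-dependent exosome budding, was nearly unread, with 4 and 5 counts (0.0319 and 0.0372 FPKM). A difference in SMPD3 was not detectable at this depth (log2 ratio 0.23, -1.99 to 2.56).

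The flotillins, scaffolds of membrane rafts, differed by less than counting error. FLOT1 had 2155 and 2336 counts (60.9 and 61.5 FPKM, log2 ratio 0.02, -0.06 to 0.11) and FLOT2 had 2278 and 2460 counts (45.8 and 46.1 FPKM, log2 ratio 0.02, -0.06 to 0.10). ANXA2, a calcium-dependent phospholipid binder found in most exosome preparations, had 25196 counts in normoxia and 28662 in hypoxia (273 and 289 FPKM). Its log2 ratio of 0.09 (0.07 to 0.12) is narrow because the gene is deeply counted, and it lay at percentile 74.0 of genes with 100 or more counts.

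HNRNPA2B1, an RNA-binding protein that recognises short motifs in miRNAs and sorts them into exosomes, was the most abundant member per length. It had 19838 counts in normoxia and 22524 in hypoxia (306 and 324 FPKM), a log2 ratio of 0.09 (0.06 to 0.12). YBX1, another protein linked to the sorting of small RNAs, had 10340 and 11271 counts (197 and 200 FPKM), a log2 ratio of 0.03 (-0.01 to 0.07). ANXA2, HNRNPA2B1 and YBX1 have processed pseudogenes of near-identical sequence, and no source used here says how reads shared with them were counted.

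**Figure D3:**
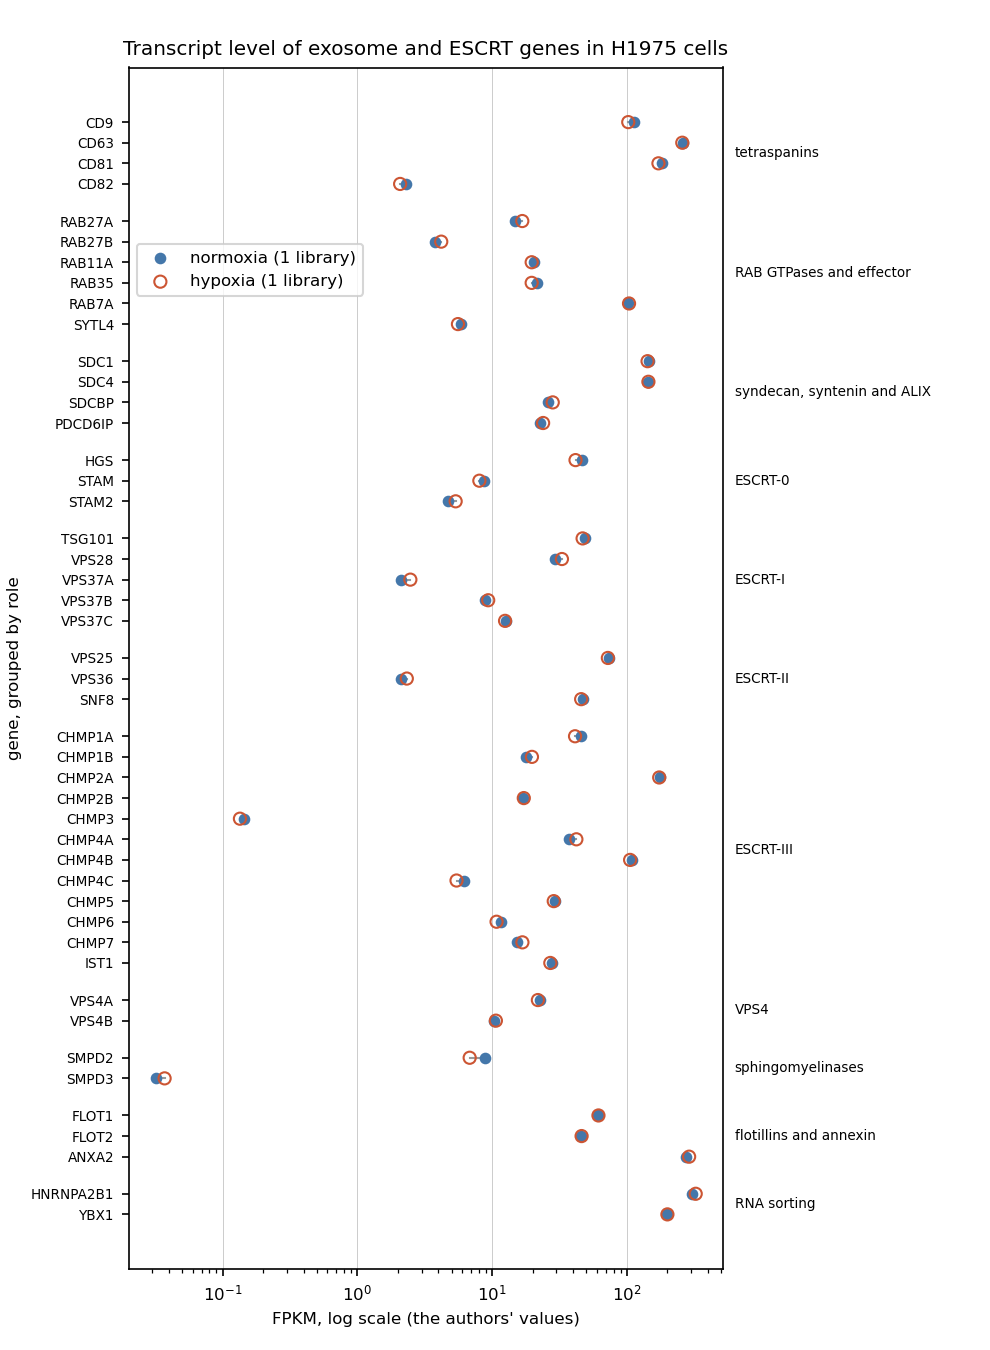
FPKM (log axis, the authors' values) of the 46 members in the normoxia (filled) and hypoxia (open) library, grouped by role, 1 library per condition. Levels span from 0.0319 (SMPD3) to 306 FPKM (HNRNPA2B1) in normoxia, and the filled and open points of each gene lie close together.

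The order of levels was much the same in both libraries. The most abundant members per length were HNRNPA2B1, ANXA2, CD63 and YBX1, in this order in normoxia and in hypoxia, and they were followed by CD81 and CHMP2A, which lay within a few FPKM of each other and changed places. The least abundant were SMPD3 and CHMP3, and above them VPS36, VPS37A and CD82, all 3 between 2.08 and 2.47 FPKM. Summed over members, the level was 2764 FPKM in normoxia and 2770 in hypoxia, and the 25 ESCRT genes summed to 810 and 800 FPKM. In the authors' annotation 37 of the 46 members (80.4%) carry the term extracellular exosome, against 1844 of 15562 genes (11.8%). The members were listed as genes of the exosome route, so this high share follows from the choice and is no result. The 36 tested members with this term had a median log2 ratio of -0.0023 and all 1555 tested genes with it had 0.0018.

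The sequence before the start site is shown for the 2 tested members with the highest and the 2 with the lowest log2 ratio among those whose entry in the RefSeq promoter table (GRCh38.p14) was used for printing, because these genes mark the extremes among the members with an entry (VPS37A, the highest of all, and CHMP4C, which lay below HGS, have none). Each is the 250 bases before the start, 5′ to 3′ along the gene, and capitals mark the core of the HIF binding site, ACGTG or GCGTG on either strand. CHMP4A lies at chr14:24213489-24213738 (minus strand), STAM2 at chr2:152175764-152176013 (minus), SMPD2 at chr6:109440474-109440723 (plus) and HGS at chr17:81683761-81684010 (plus).
CHMP4A: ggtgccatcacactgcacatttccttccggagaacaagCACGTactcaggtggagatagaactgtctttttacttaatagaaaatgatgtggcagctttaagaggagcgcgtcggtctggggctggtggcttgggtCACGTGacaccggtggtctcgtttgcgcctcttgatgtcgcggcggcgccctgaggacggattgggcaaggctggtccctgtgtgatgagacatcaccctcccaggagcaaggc
STAM2: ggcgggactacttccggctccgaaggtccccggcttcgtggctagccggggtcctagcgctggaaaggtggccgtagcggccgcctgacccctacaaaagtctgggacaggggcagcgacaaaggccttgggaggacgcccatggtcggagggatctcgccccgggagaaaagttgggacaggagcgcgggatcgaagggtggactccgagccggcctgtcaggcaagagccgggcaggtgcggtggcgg
SMPD2: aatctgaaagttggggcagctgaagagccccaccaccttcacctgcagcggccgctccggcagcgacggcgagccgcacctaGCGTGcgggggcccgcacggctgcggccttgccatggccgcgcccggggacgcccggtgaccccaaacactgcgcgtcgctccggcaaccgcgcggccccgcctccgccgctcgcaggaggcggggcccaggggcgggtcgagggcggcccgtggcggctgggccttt
HGS: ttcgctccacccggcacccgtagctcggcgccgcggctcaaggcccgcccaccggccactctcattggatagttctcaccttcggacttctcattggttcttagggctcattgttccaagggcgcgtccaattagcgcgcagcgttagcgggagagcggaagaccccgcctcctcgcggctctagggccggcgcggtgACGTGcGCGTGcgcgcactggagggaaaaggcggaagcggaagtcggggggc

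The motif did not sort with the direction of the ratio in these 4 windows. CHMP4A holds 3 matches, of which 2 overlap in a palindrome, and STAM2 holds 0, while SMPD2 holds 1 and HGS holds 2. Of the 36 members with an entry, 27 (75%) held a match before at least 1 start site, against 64.8% of the 10426 tested genes with an entry. By start site it was 35 of 55 member windows (63.6%), against 43.2% of all 35116 windows in the table and 54.9% of those of tested genes. By interval, a match was found for 5 of 8 members above 0, 4 of 4 below 0 and 18 of 24 whose interval includes 0. A match is a string of letters, and binding was not measured.

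Further genes of the pathway were read from 8 lists with 124 genes, of which 122 were in the table and 118 passed the filter. Of these 118, the interval of 28 (23.7%) lay above 0 and that of 23 (19.5%) below, with a median log2 ratio of 0.02. Of all genes tested 15.0% lay above and 14.0% below, and of those with 1000 or more counts in both libraries 21.8% and 21.1%, and the counts of each list below are to be read against these shares. The list medians ran from -0.03 for the syndecan pathway to 0.06 for further tetraspanins and endosome membrane proteins. 1 of the 118 passed the 2-fold rule, S1PR1, a sphingosine 1-phosphate receptor, with 18 counts in normoxia and 43 in hypoxia (log2 ratio 1.16, 0.34 to 2.04). It was named after its values were seen.

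Among 23 further ESCRT subunits and adaptors, 2 (8.70%) lay above 0 and 5 (21.7%) below. The lowest was ARRDC1, an arrestin-like adaptor that drives budding at the plasma membrane through TSG101, with 671 counts in normoxia and 565 in hypoxia, a log2 ratio of -0.34 (-0.50 to -0.18). The highest was the ubiquitin ligase NEDD4L, with 1321 and 1556 counts and 0.14 (0.04 to 0.25). Among 14 tested GTPases and regulators, 3 (21.4%) lay above and 1 (7.14%) below. RAB5B, of early endosomes, had 772 and 977 counts and a log2 ratio of 0.25 (0.11 to 0.39), and RAB11B had 2763 and 2698 counts and -0.13 (-0.20 to -0.05).

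Of 18 tested genes of fusion and docking, 4 (22.2%) lay above 0 and 2 (11.1%) below. EXPH5, a RAB27 effector, had 181 counts in normoxia and 259 in hypoxia, a log2 ratio of 0.42 (0.14 to 0.71), while SYTL1, another RAB27 effector, had 352 and 326 counts and -0.20 (-0.43 to 0.02). Of 13 further tetraspanins and endosome membrane proteins, 3 (23.1%) lay above and 3 (23.1%) below. The lysosomal membrane protein LAMP2 had 4531 and 5408 counts and 0.16 (0.11 to 0.22). TFRC, the transferrin receptor, which is a classic exosome cargo of reticulocytes, had 4245 and 3843 counts and -0.24 (-0.30 to -0.17).

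Of 13 ceramide and sphingosine genes, 4 (30.8%) lay above 0 and 3 (23.1%) below. SPHK1, the kinase that makes sphingosine 1-phosphate, had 372 counts in normoxia and 292 in hypoxia, a log2 ratio of -0.44 (-0.67 to -0.22), and the ceramide transporter CERT1 had 932 and 1107 counts and 0.16 (0.03 to 0.28). Of 8 syndecan pathway genes, 1 (12.5%) lay above and 3 (37.5%) below. EXT1, which polymerises heparan sulphate, had 1994 and 2523 counts and 0.25 (0.16 to 0.33), and the kinase SRC had 991 and 874 counts and -0.27 (-0.41 to -0.14).

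RNA-binding proteins and annexins completed the lists. Of 18 further RNA-binding and sorting proteins, 7 (38.9%) lay above 0 and 3 (16.7%) below, all within 0.15 on the log2 scale. TNRC6A, a partner of Argonaute, had 1051 and 1239 counts and 0.14 (0.02 to 0.26). Of 11 annexins and scaffolds, 4 (36.4%) lay above and 3 (27.3%) below. S100A10, the partner of ANXA2 in a heterotetramer, had 14731 and 18105 counts and 0.20 (0.17 to 0.24), and ANXA3 had 1176 and 1002 counts and -0.32 (-0.45 to -0.20).

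**Figure D4:**
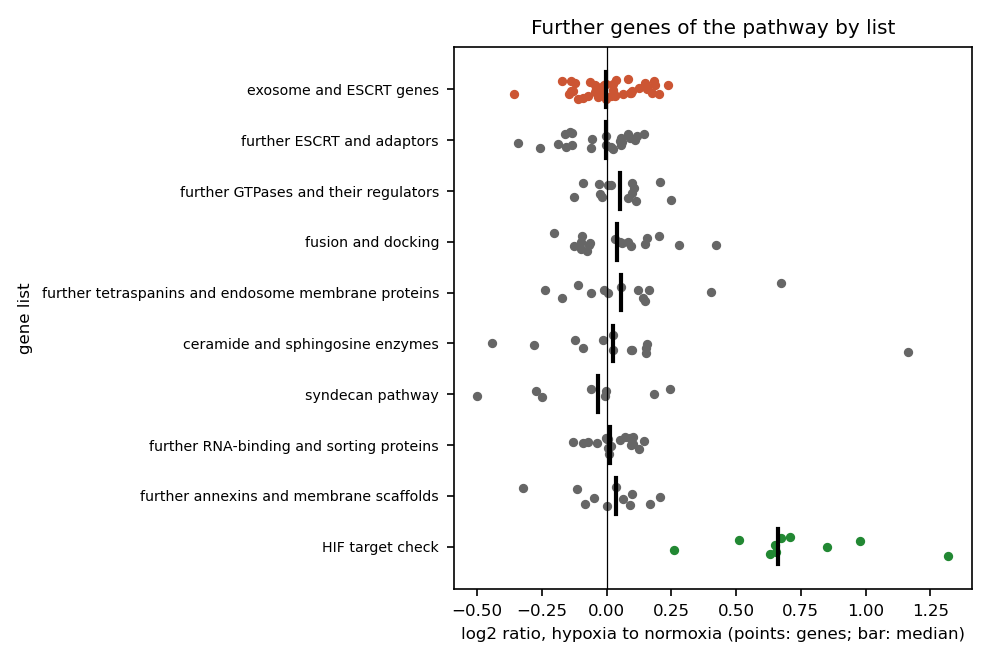
Log2 ratio of hypoxia to normoxia (x axis) for each tested gene of the members, of 8 lists of further pathway genes and of the HIF target check, with the list median as a black bar. The medians of the members and of the 8 lists lie between -0.03 and 0.06, and that of the HIF targets at 0.66.

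Longer transcripts tended to have higher ratios in these libraries, for members and for all genes. The rank correlation between gene length, as the authors' FPKM imply it, and log2 ratio was 0.32 over the 44 members and 0.21 over all 12725 genes tested, given as descriptions across genes of the same libraries. RAB27B (10160 bases) and VPS37A (9943 bases) are the longest of the 44, and CHMP4A (980 bases) is the shortest. With the trend of all genes removed, VPS37A was at 0.18 (-0.02 to 0.38), RAB27B at 0.10 (-0.05 to 0.25), STAM2 at 0.16 (-0.02 to 0.35), PDCD6IP at 0.07 (-0.01 to 0.14) and CD81 at -0.04 (-0.08 to 0.01), so these 5 no longer excluded 0. CHMP4A was then at 0.26 (0.11 to 0.42), RAB27A at 0.18 (0.06 to 0.30) and SMPD2 at -0.31 (-0.57 to -0.05). RAB7A at 0.06 (0.00101 to 0.13) and YBX1 at 0.05 (0.01 to 0.08) then excluded 0.

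The small RNA libraries allow a look at the motif that HNRNPA2B1 is known to recognise, GGAG. Of the 141 mature miRNAs in the table, 20 hold it. The 3 with the most reads over both libraries, in capitals at the motif, and miR-671-3p, the miRNA of the series title, which does not hold it and is shown with its seed (bases 2 to 8) in capitals, are as follows, 5′ to 3′ as in the deposited table with U for T.
miR-378a-3p: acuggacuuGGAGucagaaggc
miR-122-5p: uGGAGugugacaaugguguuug
let-7e-5p: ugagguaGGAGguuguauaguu
miR-671-3p: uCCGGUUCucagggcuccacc

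miRNAs with GGAG made up 3.93% of miRNA reads in normoxia (1263 of 32116, exact Clopper-Pearson 3.72 to 4.15) and 8.03% in hypoxia (528 of 6576, 7.38 to 8.71). Among the miRNAs with a read, however, 14 of 116 (12.1%) held the motif in normoxia and 10 of 76 (13.2%) in hypoxia. The reads came from few miRNAs. miR-378a-3p had 586 reads in normoxia and 121 in hypoxia, which is 1.82% and 1.84% of the library. miR-122-5p, the abundant miRNA of liver, had 142 and 169 reads (0.442% and 2.57%), and let-7e-5p had 130 and 126 (0.405% and 1.92%). Of the 20, 10 were read in normoxia and had 0 reads in hypoxia, such as miR-642a-3p with 166 and 0 reads, and 6 were read in hypoxia alone. Over all 141 miRNAs in the table, 116 had a read in normoxia and 76 in hypoxia. Absence from a library was thus common beyond the 20 and is not read as a trait of the motif. miR-671-3p had 28 and 80 reads (0.0872% and 1.22%). The labels describe these libraries as H1975 cells and do not say whether they hold the exosomal RNA of the series title. The shares come from 1 library per condition, and the hypoxia library is the shallower by far, so the shares of its miRNAs rest on few reads.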

How the data were processed

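RNA-seq and small RNA libraries of H1975 cells were used, 1 per condition and assay. The read counts per gene (15562 genes) and per mature miRNA (141) are whole numbers that the authors deposited. The FPKM the authors deposited equal the counts divided by the table total and a gene length, whole within 0.01 bases for 100% of genes. Per the submitters' processing notes, Trimmomatic, HISAT2, Cufflinks, HTSeq, Bowtie and GRCh38 were used; no source used here gives their roles, versions or strand setting. The deposited miRNA TPM were not used.

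Counts were scaled by the trimmed mean of M values in edgeR 4.0.16 (R 4.3.3) on the whole table; 1 read equals 0.0565 and 0.0530 CPM. Ratios have exact conditional Clopper-Pearson 95% intervals (scipy 1.17.1). Intervals cover counting error only; PCR copies, which no molecular identifiers mark here, make the true error larger. With 1 library per group no p-value was computed. Paralogue differences were given intervals by combining the limits of both genes. Length trends were removed by lowess (statsmodels 0.14.6). Coordinates and overlaps came from RefSeq GRCh38.p14, in which all 46 members matched by Entrez identifier. The procedure was run on simulated counts that held counting error only. Such a run cannot show how the intervals fare with a spread between cultures. Alternatives were DESeq2 1.42.0 size factors, table totals, upper quartile scaling, log2 FPKM (pseudocounts 1 and 0.1), no filter, a CPM of 5, a 99% interval, folds of 1.5 and 1.2, and length trend removal. Named genes were all members and, per further list, the highest and lowest with 100 or more counts in both libraries. A gene this rule reached is not reported here. Members and lists were chosen with earlier results of these data known; the promoter windows, paralogue pairs, depth split and annotation term were added after seeing the data.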

Additional observations from a re-analysis of the deposited data

How the results depend on the processing

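The median log2 ratio of the members lay between -0.01 and 0.04 with each other scaling, filter, FPKM pseudocount or length correction run. DESeq2 size factors and upper quartile scaling left the same 17 members with an interval excluding 0, and table totals left 16, gaining RAB35 and losing RAB27B and STAM2. Those scalings shift every log2 ratio by 0.01 or less. With the length trend removed 10 lay above (22.7%, against 13.8% of all genes tested) and 4 below (9.09%, against 13.1%), and CD63 moved out of its interval, to 0.04. With a 99% interval, 5 members lay above 0 (RAB27A, SDCBP, CHMP4A, ANXA2 and HNRNPA2B1) in place of 12, because the interval is wider, and the 5 below 0 all held. At 99% these are 11.4% above and 11.4% below, against 9.33% and 8.61% of all genes tested. At a fold of 1.5 no member was called, and at 1.2 it was 1 lower (SMPD2, against 4.60% of all genes) and 0 higher (against 4.86%). The share of reads in miRNAs with GGAG was 2.15% in normoxia and 6.31% in hypoxia without miR-378a-3p, the most abundant of them. That miRNA took 1.82% and 1.84% of reads, so leaving it out could not remove the difference. Most of the rise, from 3.93% to 8.03% with all miRNAs kept, lay with miR-122-5p and let-7e-5p. miR-122-5p held 0.442% of the normoxia library and 2.57% of the hypoxia library, and let-7e-5p held 0.405% and 1.92%. The share with both left out was not computed, and the rise is not read as a trait of the motif. The share of miRNAs with GGAG was 12.1% and 13.2%. No paired analysis was possible because each condition has 1 library. Counting depth limits CHMP3, SMPD3 and CD82, and no alternative can stand in for replicate cultures.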
